A study of Homo sapiens with 3 samples.

Results

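The nucleolar ribosome biogenesis factors described here are 10 genes, NCL, NPM1, FBL, NOP56, NOP58, DKC1, NOLC1, BOP1, WDR12 and RRS1, taken by name from a table of 44591 genes. All 10 were found in the table, and all 10 had a mean of at least 1 RPKM (reads over the length of the gene and the size of the library) over the libraries, as did 12403 genes in all. RNA was sequenced from Caki-1 cells, an established human clear cell renal cell carcinoma line, 48 h after transfection. Cells received a non-targeting siRNA (si-Control), si-RBCK1 #1 or si-RBCK1 #2, of which the last 2 carry the name HOIL-1 in the labels, and no further treatment is given for any condition. RBCK1 encodes HOIL-1, a ubiquitin ligase subunit of the linear ubiquitin chain assembly complex. The comparison asks how the RNA of these cells differs after loss of RBCK1. Each condition had 1 library, so differences could not be set against a spread between replicates and no p-value is given. The 2 siRNAs are different reagents, and both comparisons share the si-Control library.

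Ribosomes are built in the nucleolus, where RNA polymerase I makes a long precursor of ribosomal RNA that is then modified, cut and folded onto ribosomal proteins. Small nucleolar ribonucleoproteins guide the modifications, the box C/D class by 2′-O-methylation and the box H/ACA class by pseudouridylation. Assembly factors such as the PeBoW complex and the carriers of the 5S ribonucleoprotein complete the large subunit. Many genes of this pathway are known targets of the transcription factor MYC, and unused 5S ribonucleoprotein can bind the ubiquitin ligase MDM2.

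The reads behind each value were recovered from the table. The libraries had been scaled by 36926834 reads in si-Control, 40442939 in si-RBCK1 #1 and 36344428 in si-RBCK1 #2, and whole reads came out for all 10 members. RBCK1, the targeted gene, was at 33.3 RPKM in si-Control, 9.97 with si-RBCK1 #1 and 12.3 with si-RBCK1 #2, which is 29.9% and 36.8% of control on reads. Of 12 renal epithelial markers, 6 passed the filter, among them PAX8 and KRT8, with a summed level of 377 to 619 RPKM. The renal markers PAX2, LHX1, CDH16, CUBN, LRP2 and CA9 were under a mean of 1 RPKM. Of 5 leukocyte markers only CD68 passed the filter, and it held almost all of their sum of 41.8 to 52.3 RPKM, while PTPRC was at 0 in si-Control. Of 5 fibroblast markers only COL1A1 passed, in a sum of 4.15 to 5.72 RPKM. The 4 endothelial markers together reached at most 0.0635 RPKM.

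The siRNA sense strands are shown because they are the agents that set the knockdown libraries apart. Capitals mark positions 12 to 18, counted from 1 at the 5′ end, the letters that pair with positions 2 to 8 (the seed) of the guide strand.
si-RBCK1 #1: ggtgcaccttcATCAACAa
si-RBCK1 #2: ggattaccagcGATTTCTa
In the GENCODE v29 transcripts, the whole 19 bases of si-RBCK1 #1 occurred in 5 of 9 protein-coding RBCK1 transcripts, and those of si-RBCK1 #2 in 4 of 9. The capital letters were searched on the sense strand of whole transcripts, and a gene counted if any of its transcripts held them. Those of si-RBCK1 #1 occurred in 1 of 6 transcripts of NCL and 3 of 6 of NPM1 among the members. They occurred in 25.5% of 10553 expressed protein-coding genes. Those of si-RBCK1 #2 occurred in 1 of 3 transcripts of NOP56 and 1 of 1 of NOP58, and in 32.4% of the genes. These matches are a description of letters, and their part in the differences below was not tested.

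In si-Control the levels of the members, which are per length and can be set side by side, ran from 1127 RPKM for NPM1 to 23.5 RPKM for WDR12. NPM1, NCL and FBL held the highest places in each library, in that order, and WDR12 the lowest. NPM1 stood 34th, 52nd and 66th among all genes of the table in si-Control, si-RBCK1 #1 and si-RBCK1 #2. The middle of the order differed between libraries. NOP58 was the 4th member in si-Control, the 6th with si-RBCK1 #1 and the 8th with si-RBCK1 #2, whereas BOP1 was 9th, 7th and 6th. WDR12 and BOP1, at 23.5 and 25.3 RPKM in si-Control, were neighbours whose levels differed little, with a ratio of 1.08 (exact 95% interval 1.01 to 1.15, counting error only).

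**Figure D1:**
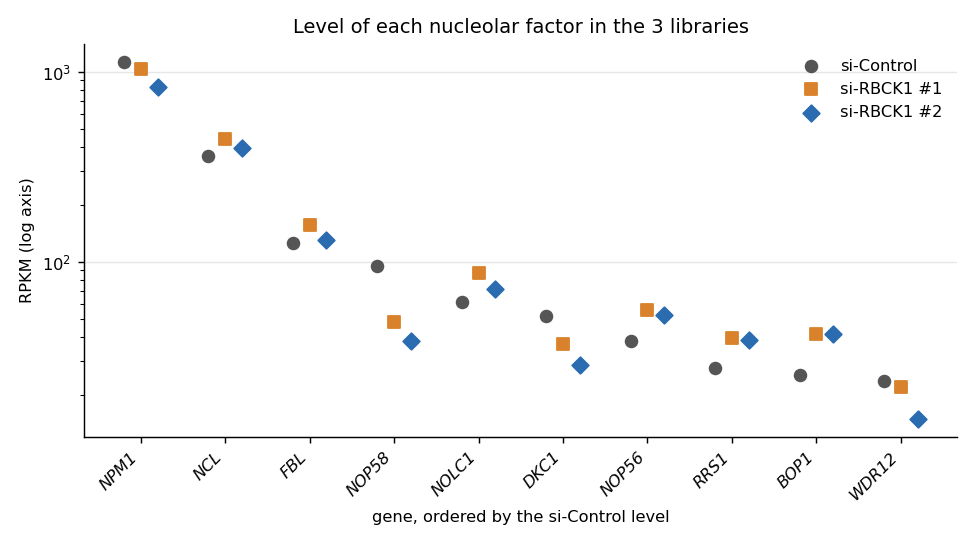
RPKM of the 10 members on a log axis in si-Control (circles), si-RBCK1 #1 (squares) and si-RBCK1 #2 (diamonds), 1 library each, ordered by the si-Control level. NOP58 lies at 95.2 RPKM in si-Control and at 48.3 and 38.2 RPKM in the knockdown libraries, while BOP1 lies at 25.3, 41.5 and 41.8 RPKM.

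Differences are given on the scale log2(RPKM + 1), each with an exact Clopper-Pearson 95% interval from reads without the added 1, which covers counting error only. Set against si-Control, 6 of the 10 members were higher with si-RBCK1 #1, beside 51.5% of all genes, and 6 with si-RBCK1 #2, beside 53.5%. These shares are close to the background, so the direction alone does not set the members apart. The median of the members was 0.30 with si-RBCK1 #1 and 0.09 with si-RBCK1 #2, beside 0.02 and 0.03 over all genes. As a mean it was 0.12 and -0.12, and less the median of genes of like GC content, chosen after seeing the data, 0.18 and -0.011, so the direction with si-RBCK1 #2 rests on the summary used. NCL, FBL, NOP56, NOLC1, BOP1 and RRS1 were the higher members in each comparison, and NPM1, NOP58, DKC1 and WDR12 the lower ones. In RNA from a whole culture, fewer cells with a transcript and less of it per cell cannot be told apart.

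At a limit of 2-fold, 0 of 10 members differed with si-RBCK1 #1 (NOP58 did with libraries set to equal totals), beside 6.18% of all genes, and 1 of 10, NOP58, differed with si-RBCK1 #2, beside 4.76%. At a limit of 1.5-fold, only BOP1 was higher in each comparison, where 12.1% and 11.3% of genes were. NOP58 was lower by at least 1.5-fold with si-RBCK1 #1, where 11.6% of genes were, and NOP58, DKC1 and WDR12 were with si-RBCK1 #2, where 9.32% were. NOP58 had the largest difference of the members, and 3.69% and 0.871% of all genes had a lower value than it did.

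**Figure D2:**
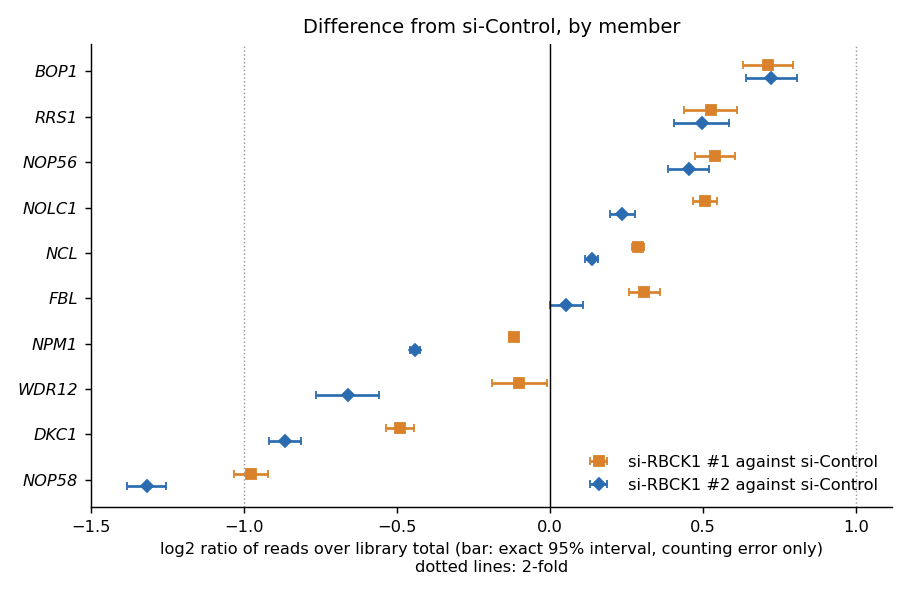
Log2 ratio of reads, over the library totals, to si-Control for each member, with si-RBCK1 #1 (squares) and si-RBCK1 #2 (diamonds). Bars are exact 95% intervals of counting error, and dotted lines mark 2-fold. NOP58, DKC1, WDR12 and NPM1 lie to the left of 0 and the other 6 members to the right, with the si-RBCK1 #2 bar of FBL reaching 0.

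NCL (nucleolin, chr2:232319459-232329205 in hg19, minus strand) encodes an abundant RNA-binding protein of the nucleolus that takes part in transcription and early processing of ribosomal RNA. Its level was 361 RPKM in si-Control, 440 with si-RBCK1 #1 and 396 with si-RBCK1 #2. Both knockdown libraries were above control, by 0.29 (0.27 to 0.31) and 0.14 (0.12 to 0.16). NPM1 (nucleophosmin, chr5:170814708-170837888, plus strand) encodes a histone chaperone of the outer, granular part of the nucleolus. It was at 1127, 1038 and 830 RPKM, with differences of -0.12 (-0.13 to -0.10) and -0.44 (-0.46 to -0.42). The most abundant member was thus lower in each knockdown library while NCL was higher. The NPM1 to NCL ratio within a library was 3.12 in si-Control, 2.36 with si-RBCK1 #1 and 2.09 with si-RBCK1 #2.

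The table also holds 49 numbered NPM1 pseudogenes, near copies between which reads could be split. Of these, 25 were at 0 in each library and 3 had a mean of at least 1 RPKM. Together they held 1100, 1226 and 858 reads, equal to 1.48%, 1.64% and 1.60% of the NPM1 reads, so their total stayed near the same small share of NPM1. NPM3, another nucleoplasmin family member, was at 42.1, 33.8 and 31.6 RPKM, lower by 0.31 and 0.40, and NPM2 was under the filter.

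FBL, NOP56 and NOP58 encode core proteins of the box C/D snoRNP. FBL (fibrillarin, chr19:40325093-40337054, minus strand), the methyltransferase of the complex, was at 125 RPKM in si-Control, 155 with si-RBCK1 #1 and 130 with si-RBCK1 #2. Its difference was 0.31 (0.26 to 0.36) with si-RBCK1 #1. With si-RBCK1 #2 it was 0.05 (-0.0016 to 0.11), which counting error alone could give. NOP56 (chr20:2633178-2639039, plus strand), a scaffold protein that holds fibrillarin to the guide RNA, was at 38.2, 55.5 and 52.3 RPKM, higher by 0.53 (0.47 to 0.60) and 0.44 (0.39 to 0.52). NOP58 (chr2:203130439-203168384, plus strand), the paralogous scaffold on the other side of the complex, was at 95.2, 48.3 and 38.2 RPKM. Its differences of -0.96 (-1.03 to -0.92) and -1.30 (-1.38 to -1.26) left 50.8% and 40.1% of the control reads. SNU13, the protein that first binds the guide RNA, was at 70.1, 71.1 and 67.1 RPKM.

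The NOP56 and NOP58 scaffolds therefore stood in opposite order in the libraries. The ratio of NOP56 to NOP58, which does not depend on how libraries are scaled, was 0.401 (0.384 to 0.418) in si-Control, 1.15 (1.10 to 1.20) with si-RBCK1 #1 and 1.37 (1.30 to 1.44) with si-RBCK1 #2. FBL to NOP58 was 1.32, 3.21 and 3.41. FBL to NOP56 was 3.28, 2.80 and 2.49, a smaller difference in the opposite sense.

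**Figure D3:**
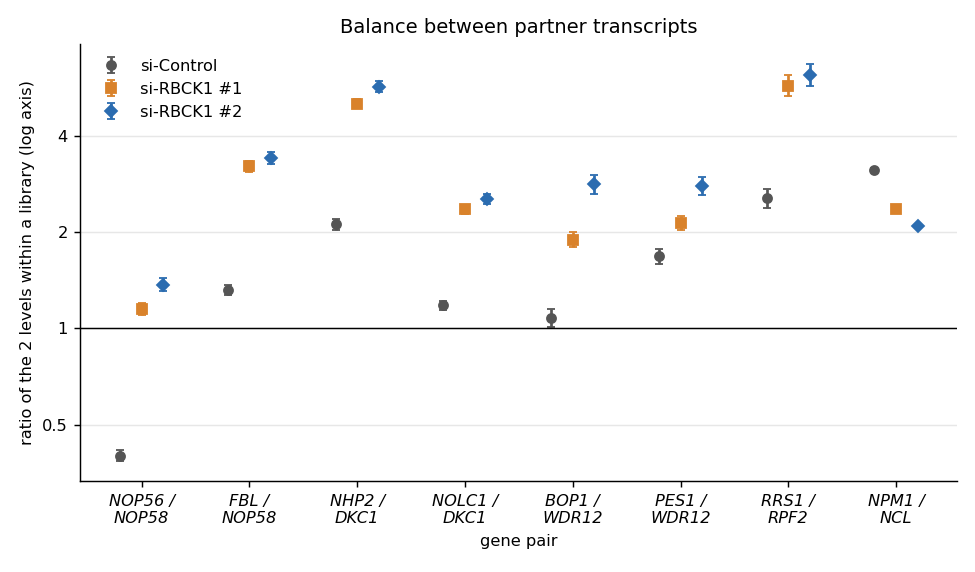
Ratio of the levels of 2 transcripts within each library, on a log axis, for pairs whose proteins share a complex or a step, in si-Control (circles), si-RBCK1 #1 (squares) and si-RBCK1 #2 (diamonds). Bars are exact 95% intervals of counting error. Of the 8 pairs plotted, all but NPM1 to NCL lie higher in the knockdown libraries than in si-Control, and NOP56 to NOP58 crosses 1. The direction depends on which gene of a pair is written first, and several pairs share a gene, so the shared direction is no result. FBL to NOP56, not plotted, was lower in the knockdown libraries (3.28, 2.80 and 2.49).

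DKC1 (dyskerin, chrX:153991017-154005964, plus strand) encodes the pseudouridine synthase of box H/ACA snoRNPs, which is also part of telomerase. It was at 51.9 RPKM in si-Control, 37.0 with si-RBCK1 #1 and 28.5 with si-RBCK1 #2, lower by 0.48 (interval of the difference -0.54 to -0.44) and 0.84 (-0.92 to -0.81). On reads this was 71.2% and 54.9% of control. Of the other core genes, NHP2 differed in the opposite direction and NOP10 and GAR1 by much less. NHP2, an RNA-binding subunit, was at 110, 186 and 162 RPKM, with differences of 0.76 and 0.56. NOP10 was at 89.6, 98.9 and 85.2 RPKM and GAR1 at 30.0, 30.5 and 26.6 RPKM, with differences of -0.07 and -0.17 in the si-RBCK1 #2 library, below control as for DKC1. The NHP2 to DKC1 ratio was 2.11 (2.03 to 2.20), 5.04 (4.87 to 5.21) and 5.68 (5.46 to 5.91).

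NOLC1 (Nopp140, chr10:103911933-103923628, plus strand) encodes a phosphoprotein that binds both snoRNP classes and moves them between Cajal bodies and nucleoli. Its level was 61.1, 86.9 and 72.0 RPKM, higher by 0.50 (0.47 to 0.55) and 0.23 (0.20 to 0.28). TCOF1, its relative in structure, was at 39.0, 60.8 and 58.7 RPKM. In the list of 11 snoRNP assembly genes to which both belong, ZNHIT6, a box C/D assembly factor, had the lowest mean of both differences, at 15.1, 5.21 and 4.78 RPKM with differences of -1.38 and -1.48. SHQ1, the chaperone that holds DKC1 before assembly, had the highest mean, at 2.81, 4.64 and 5.56 RPKM with differences of 0.57 and 0.79.

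Introns of several members carry snoRNA genes, and 13 such snoRNAs were listed. Their read numbers were small, as none had more than 19 reads in a library. In NOP56, SNORD110 had 1, 12 and 14 reads, which is a log2 ratio of 3.45 (0.70 to 8.87) with si-RBCK1 #1 and 3.83 (1.11 to 9.23) with si-RBCK1 #2. SNORA51, also in NOP56, had 1, 19 and 1 reads, and SNORA75, in NCL, had 3, 14 and 3 reads. High values of these genes were thus in 1 library alone, with si-RBCK1 #1, while SNORD110 was high in both knockdown libraries. The snoRNAs of NOP58 had at most 2 reads in a library, and those of DKC1 were at 0. At these read numbers no difference was detectable for the others.

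BOP1 and WDR12 encode, with PES1, the PeBoW complex, which is needed for maturation of the large subunit's ribosomal RNA. BOP1 (chr8:145316949-145331185 in the table, minus strand) was at 25.3 RPKM in si-Control, 41.5 with si-RBCK1 #1 and 41.8 with si-RBCK1 #2. Its differences of 0.69 (0.63 to 0.79) and 0.70 (0.64 to 0.81) were the highest of the members and nearly equal between siRNAs. WDR12 (chr2:203745323-203776949, minus strand) was at 23.5, 21.9 and 14.9 RPKM, with differences of -0.10 (-0.19 to -0.01) and -0.63 (-0.76 to -0.56). Its 2 knockdown libraries were far apart, and only that of si-RBCK1 #2 was well below control. PES1 was at 39.5, 46.8 and 41.3 RPKM. The ratio of BOP1 to WDR12 was 1.08, 1.89 and 2.81, and that of PES1 to WDR12 was 1.68, 2.13 and 2.78.

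The entries of 3 members are shorter in the table than in GENCODE v29, on GRCh38, by a wide margin. BOP1 spans 14237 nt in the table and 29269 nt there, NCL 9747 and 30111 nt, and WDR12 31627 and 140017 nt. In the table BOP1 lies 105 nt past MROH1 and 184065 nt before HSF1. Whether its entry holds the whole gene in its proper place was not tested. The gene SCX lies inside BOP1 on the other strand with 29, 30 and 17 reads, beside 1923, 3451 and 3125 for BOP1. IDH3B overlaps NOP56 by 4 nt and CARF overlaps WDR12 by 9 nt, both on the other strand. Whether the counting used strand is not stated, and the part of these lengths and overlaps in the members' values was not tested.

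RRS1 (chr8:67341263-67342968, plus strand), with its partner RPF2, brings the 5S ribonucleoprotein to the large subunit precursor. RRS1 was at 27.5 RPKM in si-Control, 39.5 with si-RBCK1 #1 and 38.7 with si-RBCK1 #2, higher by 0.51 (0.44 to 0.61) and 0.48 (0.41 to 0.59). RPF2 was at 10.8, 6.89 and 6.26 RPKM, with differences of -0.58 and -0.70. Both knockdown libraries lay above control for RRS1 and below it for RPF2, and their ratio was 2.55 (2.37 to 2.73), 5.73 (5.33 to 6.17) and 6.19 (5.72 to 6.70). The ribosomal proteins of the particle also differed from each other. RPL11 was at 739, 980 and 825 RPKM and RPL5 at 535, 494 and 446 RPKM. HEATR3, which imports both proteins, was low in level at 3.79, 8.32 and 6.51 RPKM and had the highest differences of the list, 0.96 and 0.65.

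The comparison of si-RBCK1 #2 with si-RBCK1 #1 does not use the shared control. Here 9 of 10 members were lower with si-RBCK1 #2, beside 48.2% of all genes, with a median of -0.26 beside 0.01. The direction was not particular to the members. Of 180 other ribosome biogenesis genes, described below, 127 were lower, with a median of -0.08. WDR12 had the lowest value, -0.53 (-0.66 to -0.46), followed by DKC1 at -0.37 (-0.43 to -0.32), NOP58 at -0.33 (-0.41 to -0.27) and NPM1 at -0.32 (-0.34 to -0.31). BOP1, at 0.01 (-0.06 to 0.08), and RRS1, at -0.03 (-0.11 to 0.05), were within counting error of no difference. RBCK1 itself was higher with si-RBCK1 #2 than with si-RBCK1 #1, by 0.27.

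Other genes of the pathway were taken from 12 lists that share some genes, and 180 of them were not members. All 180 passed the filter. The gene called highest or lowest of a list is the one whose mean of both differences from si-Control, not its level, is so. With si-RBCK1 #1, 124 were higher and 56 lower, with a median of 0.21, and 38 were higher and 7 lower by at least 1.5-fold. Over all genes 51.5% were higher, with 12.1% higher and 11.6% lower by at least 1.5-fold. With si-RBCK1 #2, 108 were higher and 72 lower, with a median of 0.12, and 29 were higher and 10 lower by at least 1.5-fold. The shares over all genes were 53.5% higher, with 11.3% higher and 9.32% lower by at least 1.5-fold. The list medians include any member that stands in the list. With si-RBCK1 #1 they ran from 0.06 for the RNA exosome (14 genes) to 0.41 for the 5S RNP (5 genes, RRS1 among them). With si-RBCK1 #2 they ran from -0.12 for the box H/ACA core (4 genes, DKC1 among them) to 0.28 for the RNA polymerase I machinery (20 genes). The latter was 0.17 at a pseudocount of 5 RPKM. The median for RNase MRP and P, 0.18 with si-RBCK1 #2, was 0.43 once genes averaging under 5 RPKM were left out. The members ran from -0.96 to 0.69 with si-RBCK1 #1 and from -1.30 to 0.70 with si-RBCK1 #2.

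RNA polymerase I genes showed the same mixture. POLR1A, the largest subunit, was at 8.26, 15.4 and 15.1 RPKM and UBTF, which opens ribosomal DNA, at 12.2, 18.1 and 20.1 RPKM. RRN3, the initiation factor that recruits the polymerase, was lower, at 24.7, 16.6 and 16.1 RPKM. POLR2L, a subunit shared by the nuclear polymerases, was the highest of that list, at 43.6, 86.7 and 108 RPKM, and TAF1D the lowest, at 43.1, 23.95 and 26.005 RPKM. Among 20 genes, 13 were higher with si-RBCK1 #1 and 12 with si-RBCK1 #2, beside 51.5% and 53.5% of all genes.

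Of the 52 genes of the small subunit processome, the particle that folds and cuts the small subunit precursor, 38 and 32 were higher. Over all genes, 51.5% and 53.5% were higher. IMP3 was highest, at 15.0, 30.9 and 35.9 RPKM, and WDR36 lowest, at 17.6, 9.99 and 13.7 RPKM. Of the 56 genes of large subunit assembly, to which BOP1, WDR12 and RRS1 belong, 40 and 39 were higher. The helicase gene DDX54 was highest there, at 11.5, 25.3 and 28.4 RPKM, and RSL24D1 lowest, at 90.9, 54.5 and 54.4 RPKM. In the list of 8 nucleolar proteins with several roles, where NCL and NPM1 stand, MKI67 was highest at 11.9, 22.5 and 25.2 RPKM and NPM3 lowest.

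Of the 180 genes, POP1, the scaffold of RNase MRP, had the highest mean of both differences, 1.30 and 1.29, at 7.19, 19.11 and 18.99 RPKM. RPP40 was the lowest of its 10 genes, at 18.97, 17.6 and 13.7 RPKM. In the RNA exosome, which trims precursor ends, EXOSC2 was highest at 11.3, 20.2 and 15.7 RPKM and EXOSC8 lowest at 34.6, 19.6 and 20.98 RPKM. There 7 of 14 genes were higher in each comparison, beside 51.5% and 53.5% of all genes. Among 12 genes of export and cytoplasmic maturation, NXF1 was highest at 10.8, 17.6 and 18.4 RPKM. EFL1, the GTPase that releases EIF6 from the large subunit, was lowest at 8.78, 5.25 and 4.76 RPKM.

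MYC, which activates many of these genes, was at 143, 124 and 126 RPKM, with differences of -0.20 and -0.18, and MAX, its dimer partner, at 23.3, 14.6 and 15.3 RPKM. MXD4, a repressor that competes for MAX, was highest of its list at 12.001, 19.3 and 28.1 RPKM, and MXI1, another such repressor, lowest at 12.3, 5.71 and 5.40 RPKM. Among 10 genes of the MYC network above the filter, 4 and 5 were higher, beside 51.5% and 53.5% of all genes. In the list of genes that tie the 5S RNP to MDM2, MDM2 itself was at 25.99, 39.1 and 50.9 RPKM. MDM4 was the lowest of that list, at 9.02, 7.75 and 6.97 RPKM. CDKN1A was the highest, listed at 117, 504 and 593 RPKM, values that do not give whole reads, and CDKN2A, whose ARF product binds NPM1, was under the filter.

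The promoters of 6 members were in the RefSeq table for GRCh38.p14, each with 250 bases before and 50 after the gene start. The motif CACGTG, the E-box that MYC and MAX bind, reads the same on either strand. It occurred in 1 of these 6 members, FBL, and in 7.26% of all 35116 promoters in the table. It is shown in a window of 60 bases of FBL, chr19:39846360-39846419 in GRCh38.p14, minus strand, with the motif in capitals starting 6 bases past the start of the gene.
FBL: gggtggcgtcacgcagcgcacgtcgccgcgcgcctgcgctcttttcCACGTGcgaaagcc
FBL was the higher member with the smallest difference in the si-RBCK1 #2 library. A match is a run of letters, and binding was not measured.

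The members that were lower and those that were higher also differed in base composition and length of the gene. These properties were chosen after the values were seen. Transcript GC content, taken as the median over a gene's protein-coding transcripts in GENCODE v29, was 40.2% to 47.9% for NPM1, NOP58, DKC1 and WDR12. It was 49.3% to 65.7% for the 6 higher members, so the ranges did not overlap. Gene span in the table was 14948 to 37946 nt for the lower members and 1706 to 14237 nt for the higher ones. This separation held for the spans of the table alone, where DKC1 and BOP1, at the edges of the gap, share a span quintile. In GENCODE v29 the higher members NCL and BOP1 span 30111 and 29269 nt, within the range of the lower ones.

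The same properties went with the differences over 10553 protein-coding genes. Over quintiles of transcript GC content, lowest first, the median difference with si-RBCK1 #2 was -0.17, -0.08, 0.03, 0.19 and 0.28. With si-RBCK1 #1 it was -0.17, -0.06, 0.07, 0.17 and 0.14. From the shortest to the longest quintile of gene span the median went from 0.17 to -0.22 with si-RBCK1 #1 and from 0.19 to -0.16 with si-RBCK1 #2. Spearman's rho over these genes, which share the libraries and are no replicates, was 0.24 and 0.39 with GC content and -0.28 with span in both comparisons.

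Set against the median of its own GC quintile, NOP58 was still lower by 0.79 and 1.13 and DKC1 by 0.54 and 0.87. BOP1 was 0.55 and 0.42 above its quintile. WDR12 with si-RBCK1 #1 moved to 0.07 above its quintile, and FBL with si-RBCK1 #2 to -0.13. The part of GC content and span in the members' differences was not tested.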

How the data were processed

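Total RNA of the 3 libraries was depleted of ribosomal RNA and sequenced in paired ends after a directional kit, per the labels, while the paper's methods name another sequencing platform. The authors deposited 1 RPKM value per gene and library; the submitters' processing notes name TopHat2, HTSeq, Trimmomatic, FastQC and build hg19, and the formula and annotation are not given in the sources used here. The columns of the authors' own comparison (control, treated, fold change, p-value and q-value) were not used.

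Members and lists were chosen with earlier results of these data known. Ratios were taken on log2(RPKM + 1) where the mean over libraries reached 1 RPKM, and without replicates no test was run. Library totals were recovered from genes of up to 200 nt, which hold 1 or a few reads, and each gene's reads from the span, or else the shortest length up to it, that gives whole numbers within 0.001 in each library. Intervals are exact Clopper-Pearson (95%) and cover counting error only. Named genes are the members, RBCK1, the highest and lowest gene of each list by the mean of both ratios, small complexes in full and preset regulators, of which some are not reported here. TCOF1 and the snoRNAs were named after their values were seen. Transcripts were matched by symbol for 97.9% of 10775 protein-coding genes above the filter. The recovery of library totals and of reads per length, and the counting intervals, were tested on simulated reads that held counting error only. The other steps were not tested in this way. Tools were scipy 1.17.1 for intervals, pandas 2.3.3 with numpy 2.4.6 under Python 3.11.15, and matplotlib 3.10.9 for plots.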

Additional observations from a re-analysis of the deposited data

How the results depend on the processing

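Alternatives were a pseudocount of 0.1 or 5 RPKM, libraries set to the same median or the same total, a filter left out or raised to 5 RPKM, and recovered reads in place of RPKM. Of 210 values for single members under these, 191 kept their direction and moved by no more than the counting interval reaches to either side. That number includes all values under the changed filters, which cannot alter a single member's ratio. Only BOP1 between the siRNAs turned direction, to -0.030 with equal medians. The median of the members with si-RBCK1 #1 was 0.24 with equal totals, 0.12 as a mean and 0.18 less the median of the same GC quintile, the last chosen after seeing the data. With si-RBCK1 #2 it turned to -0.12 as a mean and to -0.011 by GC quintile, where WDR12 with si-RBCK1 #1 was 0.073 and FBL with si-RBCK1 #2 was -0.13. Members at least 2-fold changed numbered 1 with si-RBCK1 #1 under equal totals, and 2 and 4 of 10 at a limit of 1.5-fold. At that limit 12.1% and 11.3% of all genes were higher, and 11.6% and 9.32% were lower. List medians with si-RBCK1 #2 turned for snoRNP assembly (-0.055 at 5 RPKM), for export and cytoplasmic maturation (-0.024 with equal medians, -0.0069 with equal totals) and for the MYC network (-0.016 and -0.00057). Medians for RNA polymerase I (0.17 at a pseudocount of 5 RPKM) and RNase MRP and P (0.43 at 5 RPKM) also moved with si-RBCK1 #2. Without a filter, the median of the list that ties the 5S RNP to MDM2 moved too. It went from 0.30 to 0.20 with si-RBCK1 #1 and from 0.27 to 0.16 with si-RBCK1 #2. The medians of the growth markers moved as given below. The cause was not tested. No paired analysis was possible because there is only 1 library of each kind.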

Other observations

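The 6 growth markers, listed beside the ribosome biogenesis genes, were higher in each knockdown library, with medians of 1.09 and 1.09. Over all genes, 51.5% and 53.5% were higher. The medians were 0.79 and 0.91 at a pseudocount of 5 RPKM, and 0.93 with si-RBCK1 #1 on recovered reads. Growth was not measured in these libraries, and the paper reports lower proliferation of Caki-1 cells after RBCK1 knockdown. PCNA, the sliding clamp of DNA replication, was at 27.2 RPKM in si-Control, 93.3 with si-RBCK1 #1 and 79.4 with si-RBCK1 #2, and TOP2A, the marker with the lowest mean difference, at 29.6, 31.1 and 31.1 RPKM. CCND1 is among the 6, and its listed values do not give whole reads. KRT8, an epithelial keratin, had the highest mean difference of the renal epithelial list, at 65.6, 172 and 238 RPKM, and PAX8 the lowest, at 124, 82.5 and 107 RPKM. Of the other lists, the leukocyte sum of 41.8 to 52.3 RPKM was almost all CD68, and the fibroblast sum was 4.15 to 5.72 RPKM, most of it COL1A1.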
